A study of Mus musculus with 32 samples.

Results

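Genes of the splicing factor families were followed across lymphomas of Eµ-myc mice. Members were all genes whose symbol starts with Srsf, Snrp, Sf3a, Sf3b, Hnrnp or Prpf in the platform annotation, read by the 1-symbol probe set with the highest mean. The annotation named 64 such genes. Of these, 59 had a probe set with 1 symbol, out of 18194 genes with such a probe set in the series, and 57 passed the filter on dim probe sets, out of 11228 genes tested. Snrpn and Srsf12 fell below that filter, with means of 5.02 and 3.04 on the log2 scale. Hnrnpa1l2-ps2, Hnrnpa3, Snrpa, Snrpd1 and Snrpd2 were named only by probe sets shared with other genes and are not analysed here. The tested members were 9 SR proteins, 8 proteins of the small nuclear ribonucleoproteins (snRNPs), 3 subunits of SF3A, 6 of SF3B, 19 hnRNP proteins and 12 PRPF proteins.

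All 32 samples were lymphomas of the genotype Eµ-myc, in which the immunoglobulin heavy chain enhancer drives Myc in B lineage cells, and each was measured on 1 Affymetrix Mouse430_2 array. The labels give 1 group, with no age, treatment, control or normal B cell sample, so the values below describe differences among tumours, which are named by their number in the labels. The protocol allows for RNA from frozen tissue as well as from cells in suspension. Which was used for a given tumour is not stated, nor whether any 2 tumours share a mouse. The p-values therefore measure only the spread between these arrays, part of which may be technical.

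Splicing removes introns from the primary transcript. The U1 snRNP binds the start of an intron, the U2 snRNP with its SF3A and SF3B complexes binds the branch point, and the U4/U6.U5 tri-snRNP, to which several PRPF proteins belong, then brings the spliceosome to catalysis. SR proteins mostly promote the use of nearby exons and hnRNP proteins often repress it. Myc-driven lymphoma cells depend on this machinery, and genes for several of its parts, among them SR and hnRNP proteins, have been described as Myc targets.

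The B lineage markers were present. All 7 of them that were tested stood above the filter value in each tumour, with Cd79b, a part of the B cell receptor, between 11.11 and 12.63 in the 32 tumours, and Ebf1, an early B cell factor, between 6.24 and 10.66. Tumours also held other cells to differing extents. An other-cell score, the mean of the T cell (6 genes), myeloid (12), stroma (8) and endothelial (6) marker scores in SD units, ran from -0.97 in tumour 29 to 1.47 in tumour 30, with tumours 24, 25 and 2 next to the highest. The T cell score was highest in tumours 24 and 2, at 3.07 and 2.52. The other-cell score was opposed to Myc (r = -0.50), to the Myc target score (r = -0.58) and to the proliferation score (r = -0.54) over the 32 tumours, which share the arrays. In bulk RNA, fewer cells of a type and less RNA per cell cannot be told apart.

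Most splicing factor genes, as read by their brightest probe set, varied little from tumour to tumour. The median SD of the 57 members was 0.20 log2 units, against 0.28 for all 11228 genes tested, and 49 members lay below that all-gene median. Of the members, 18 (31.6%) varied more than every hybridisation control on the arrays, whose largest SD was 0.22, against 69.5% of all genes. Only 3 members (5.26%) varied more than every poly-A control, against 32.1% of all genes. The rest of the members varied no more than the most variable of these controls. The SD was lowest in Snrpe, a Sm core protein (SD 0.066), Hnrnpab (SD 0.090), Hnrnpf (SD 0.090) and Hnrnpc (SD 0.10), each with n = 32. Their means were high, from 12.78 to 13.02. Other probe sets above the filter varied more, with SDs of 0.13 to 0.37 for Hnrnpab, 0.11 to 0.21 for Hnrnpf and 0.24 for Hnrnpc. The spread of the members was not set against that of equally bright genes.

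**Figure D1:**
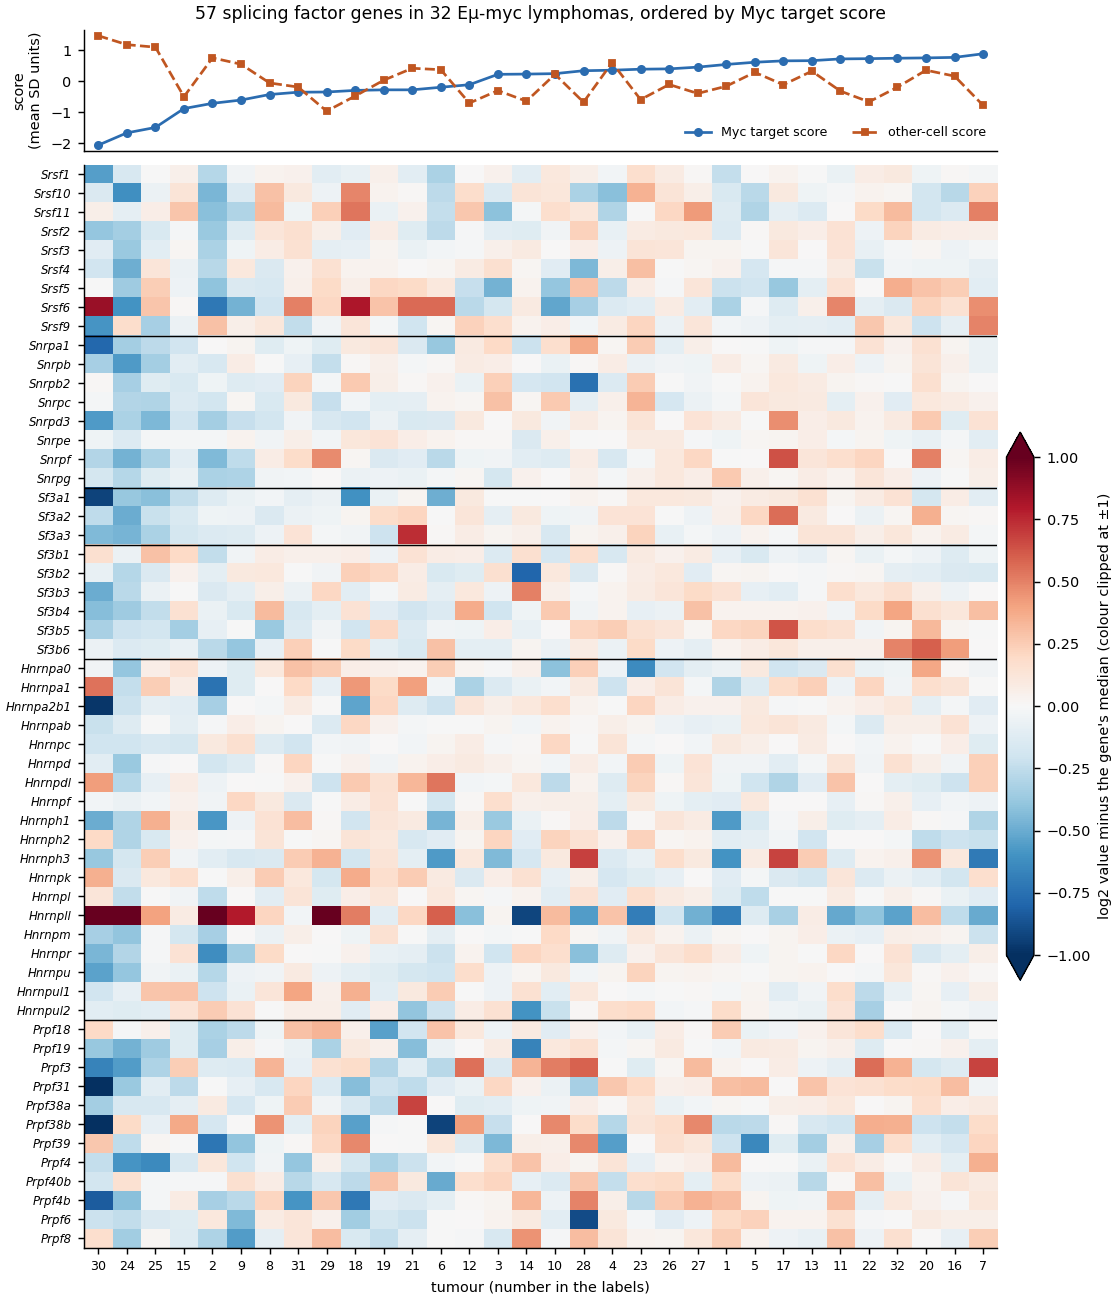
Log2 value of each of the 57 members minus its own median (colour, clipped at ±1) in the 32 tumours, ordered from left to right by Myc target score, with that score and the other-cell score above. Rows are grouped from top to bottom as SR, snRNP, SF3A, SF3B, hnRNP and PRPF. Blue columns stand at the left, where tumours 30 and 24 hold the lowest value of 16 and 11 members, and Hnrnpll departs most from its median. The same count over all genes was not made.

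The member that differed most was Hnrnpll, an hnRNP L relative known from lymphocytes for its part in the alternative splicing of Ptprc (CD45). Its level ran from 5.82 in tumour 14 over a median of 6.74 to 10.81 in tumour 29 (SD 0.98, n = 32), a 31.8-fold range. Tumour 29 stood far above the next ones, tumours 24 (8.86), 2 (8.41) and 30 (7.97). A separate Hnrnpll probe set followed it (r = 0.98) and read 10.59 in tumour 29 against a median of 6.38. Without tumour 29 the SD was 0.69, which was above that of any other member over the 32 tumours. The paralogue Hnrnpl ran only from 11.41 to 11.84 (SD 0.11).

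The 7 next largest spreads were far smaller. Prpf38b, a spliceosomal protein, ran from 8.84 in tumour 30 over a median of 10.66 to 11.14 in tumour 10 (SD 0.45), and tumour 6, at 9.74, was next lowest. Srsf6, an SR protein, ran from 11.04 in tumour 2 over 11.75 to 12.61 in tumour 30 (SD 0.39). Prpf3, a U4/U6 snRNP protein, had an SD of 0.33, with 8.34 in tumour 30 and 9.68 in tumour 7. The others were Hnrnph3 (SD 0.32), the kinase gene Prpf4b (SD 0.31), the U4/U6 protein gene Prpf31 (SD 0.29) and Prpf39 (SD 0.29), a U1-associated protein. Prpf31 was 8.19 in tumour 30 and at or above 8.90 in every other tumour.

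Tumours 30, 24 and 2 held the lowest value of 35 of the 57 members between them, in 16, 11 and 8 members. How many of all genes were lowest in these tumours was not counted, so this is not read as particular to the members. Tumour 24 also had the lowest median of all tested genes on several chromosomes, among them 7, 8 and 11. Tumours 30, 24 and 2 ranked 1, 2 and 4 in the other-cell score. Tumour 30 had the lowest Myc target and proliferation scores of the series, and tumour 2 the lowest Myc level, at 9.81. Because these 3 tumours decide many of the values below, the total counts of called members on each measure, and those of list genes and probe sets, are given with and without them, an alternative chosen after the data were seen. The part of other cells or of RNA quality in these low values was not tested.

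Myc RNA itself ran from 9.81 in tumour 2 over a median of 11.34 to 12.30 in tumour 7 (SD 0.50). Of the 57 members, 14 were higher where Myc was higher and 0 were lower (limma, Benjamini-Hochberg adjusted p under 0.05), against 10.4% of all genes higher and 9.67% lower (20.1% in either direction). That is 24.6% of the members. The median slope was 0.040 log2 units per SD of Myc for the members and 0.014 for all genes. Calls came from the SR proteins (5 of 9), the snRNP proteins (3 of 8), SF3B (1 of 6), hnRNP proteins (3 of 19) and PRPF proteins (2 of 12), and none of the 3 SF3A members was called. Among the brighter genes that pass a filter at the 75th percentile, 13 of 55 members were higher (23.6%, against 13.6% of all genes).

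Srsf11, an SR protein, had the largest moderated t on the Myc level. Its level was 11.56 in tumour 2, 11.98 in the median tumour and 12.51 in the highest one, and its slope was 0.16 ± 0.037 (SE) log2 units per SD of Myc (adjusted p = 0.00353). Snrpg, a Sm core protein, followed with a slope of 0.081 ± 0.020 (adjusted p = 0.00536). Prpf8, the large U5 protein at the heart of the spliceosome, had 0.13 ± 0.032 (adjusted p = 0.00611). Prpf39 had 0.16 ± 0.043 (adjusted p = 0.00789), a call lost without tumour 2. Hnrnpd, also known as AUF1, had 0.076 ± 0.020 (adjusted p = 0.00863). Each of these slopes is a difference of 1.05- to 1.12-fold per SD of Myc.

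The calls on the Myc level rested on few tumours. Without tumours 2, 24 and 30 only Srsf11 was called (1 of 57, 1.75% of the members against 4.56% of all genes), with a slope of 0.14 and adjusted p = 0.0232. Leaving out tumour 2 alone gave 5 calls (8.77% higher, against 5.45% of all genes), tumour 24 alone 9 (15.8%, against 6.24%) and tumour 30 alone 20 (33.3% higher, against 13.8%). With the other-cell score as a covariate, 2 calls were left, Hnrnpa1 and Srsf6, which is 3.51% of the members against 3.31% of all genes higher. Hnrnpd, Prpf8, Snrpg and Srsf11 were the 4 members called whichever single tumour was left out. Srsf11 lies on chromosome 3 and also followed the level of that chromosome's other genes, as given further below. Tumours 7, 32, 22 and 27, which ranked 1, 2, 3 and 5 in Myc, had chromosome 3 levels from 0.22 to 0.27. Tumours 8, 10, 12, 15 and 18, with levels from 0.17 to 0.24, ranked 23, 16, 19, 26 and 10 in Myc. The relation of Srsf11 with Myc apart from that chromosome was not tested.

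Myc binds the E-box CACGTG, so the start sites of the members called on the Myc level were read. All 14 had a promoter in the RefSeq table (GRCm38.p6), a window of 250 bases before to 50 after the start, and 2 of them (14.3%) held CACGTG, a palindrome that reads the same on both strands. Among tested members with a promoter it was 7 of 51 (13.7%), against 11.8% of all genes tested with a promoter and 8.09% of all genes in the table. The share among the called members was therefore near the background. The 250 bases before the start of these 2 genes are shown, with the E-box in capitals, since they are the called members that hold it. Hnrnpd lies on the minus strand at chr5:99978939-99979188, with the E-box starting 32 bases upstream, and Prpf39 on the plus strand at chr12:65036084-65036333, with the E-box starting 43 bases upstream.
Hnrnpd: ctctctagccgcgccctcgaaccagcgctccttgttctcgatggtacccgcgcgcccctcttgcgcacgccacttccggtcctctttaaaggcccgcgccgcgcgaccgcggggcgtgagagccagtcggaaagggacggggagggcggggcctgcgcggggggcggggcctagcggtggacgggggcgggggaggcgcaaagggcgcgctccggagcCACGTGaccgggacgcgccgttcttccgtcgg
Prpf39: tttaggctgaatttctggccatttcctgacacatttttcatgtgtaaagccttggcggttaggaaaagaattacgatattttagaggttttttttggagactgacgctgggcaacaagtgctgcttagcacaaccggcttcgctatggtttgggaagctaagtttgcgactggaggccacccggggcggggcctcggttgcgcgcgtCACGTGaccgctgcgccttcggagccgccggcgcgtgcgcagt
A match is a description of these letters and does not show binding in these tumours.

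Against a score of 21 tested Myc target genes of ribosome biogenesis and nucleotide or polyamine synthesis, 27 members were higher and 2 lower, against 21% of all genes higher and 13.4% lower (34.4% in either direction). The higher members were 47.4% of the 57. The median slope was 0.071 for the members and 0.020 for all genes. The snRNP proteins (6 of 8), SF3A (3 of 3) and SF3B (4 of 6) held the largest shares of higher members, and 5 of 12 PRPF, 3 of 9 SR and 6 of 19 hnRNP members were higher. The 2 lower members were hnRNPs, Hnrnpll with a slope of -0.56 ± 0.14 (adjusted p = 0.00294) and Hnrnpk with -0.071 ± 0.028 (adjusted p = 0.0440). The Hnrnpk call was lost in 18 of the 32 fits that left out a tumour. Hnrnpll was called in all 32, but without tumours 2, 24 and 30 together its slope was -0.37 (adjusted p = 0.0847). With the filter at the 75th percentile 27 of 55 members were higher (49.1%, against 27.3% of all genes).

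Snrpd3, a Sm core protein, followed the Myc target score most closely by the probe set used. Its level was 11.94 in tumour 30, 12.51 in the median tumour and 12.97 in tumour 17, and its slope of 0.18 ± 0.021 log2 units per SD is 1.13-fold (adjusted p = 3.63e-07). This call held whichever tumour was left out and without tumours 2, 24 and 30 (slope 0.14, adjusted p = 0.000102). The other Snrpd3 probe sets, far dimmer with means of 5.86 and 7.04, had slopes of -0.068 ± 0.063 and -0.020 ± 0.13 and were not called. Prpf31 had a slope of 0.22 ± 0.036 (adjusted p = 2.63e-05), and Sf3a1, the largest SF3A subunit, had 0.18 ± 0.030 (adjusted p = 3.35e-05). Snrpb, the Sm B protein, had 0.11 ± 0.020 (adjusted p = 0.000143), and Prpf4, a U4/U6 protein, had 0.16 ± 0.030 (adjusted p = 0.000159).

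Read by complex, the Sm core members Snrpb, Snrpd3, Snrpf and Snrpg were higher with the Myc target score, with slopes from 0.088 to 0.18, whereas Snrpe (SD 0.066) was not called. All 3 SF3A subunits were higher, with slopes of 0.18 for Sf3a1, 0.12 for Sf3a2 and 0.12 for Sf3a3. Of SF3B, the subunits Sf3b3, Sf3b4, Sf3b5 and Sf3b6 were higher, with slopes between 0.096 and 0.14, the call of Sf3b3 being lost without tumour 30. Sf3b1, the large subunit and a known target of mutation in human blood cancers, had a slope of -0.050 ± 0.022 (adjusted p = 0.0805) and was not called, nor was Sf3b2. Sf3b1 was called lower with the other-cell score as a covariate (adjusted p = 0.0125), without tumours 2, 24 and 30 (adjusted p = 0.0116) and after quantile normalization again (adjusted p = 0.0454), whereas the mean of its probe sets had a slope of -0.0027 (adjusted p = 0.949).

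Without tumours 2, 24 and 30, 9 members were called on the Myc target score, 6 higher and 3 lower, of which 7 were among the 29. The higher share was then 10.5% of the members against 12% of all genes, which is near the background. Leaving out tumour 30 alone gave 21 calls (35.1% higher, against 18.3% of all genes). The other-cell score as a covariate gave 16 calls, 13 of them higher (22.8%, against 13.6% of all genes). The proliferation score as a covariate gave 3, Prpf4, Sf3b5 and Snrpd3 (5.26%, against 6.92% of all genes higher). Of the 29 calls, 17 were made whichever single tumour was left out.

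The proliferation score, over 21 tested cell cycle genes, gave 24 members higher and 1 lower (Hnrnpll), against 18.3% of all genes higher and 11.1% lower (29.4% in either direction). The higher members were 42.1% of the 57. The 2 scores shared tumours and were related (r = 0.72), and 22 members were higher on both, 81.5% of the 27 and 91.7% of the 24. The same overlap over all genes was not counted, so it is not read as particular to the members. Hnrnpa2b1, an hnRNP A/B protein, had a slope of 0.19 ± 0.026 by the probe set used (adjusted p = 5.89e-06), but its other probe sets were not called. Its level was 11.76 in tumour 30, against a median of 12.73 and a highest value of 12.94. Prpf31 had 0.23 ± 0.033 (adjusted p = 7.85e-06), Sf3a1 had 0.19 ± 0.028 (adjusted p = 1.35e-05), and Hnrnpu, a nuclear scaffold protein, had 0.12 ± 0.019 (adjusted p = 1.85e-05). Srsf2, an SR protein, had 0.12 ± 0.021 (adjusted p = 7.04e-05). Hnrnpll was lower, with -0.51 ± 0.15 (adjusted p = 0.00999).

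Without tumour 30 alone 16 members were called (26.3% higher, against 13% of all genes), and without tumours 2, 24 and 30 only Hnrnpa2b1, Prpf31 and Sf3a1 were (5.26% of the members, against 4.76% of all genes higher). The other-cell score as a covariate left 11 calls, all higher (19.3%, against 11.3% of all genes). With the filter at the 75th percentile 25 of 55 members were higher (45.5%, against 24.5% of all genes). The 7 members higher with the Myc level and with both scores were Hnrnpd, Hnrnpr, Snrpd3, Snrpf, Snrpg, Srsf2 and Srsf3. This overlap was not counted over all genes either.

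**Figure D2:**
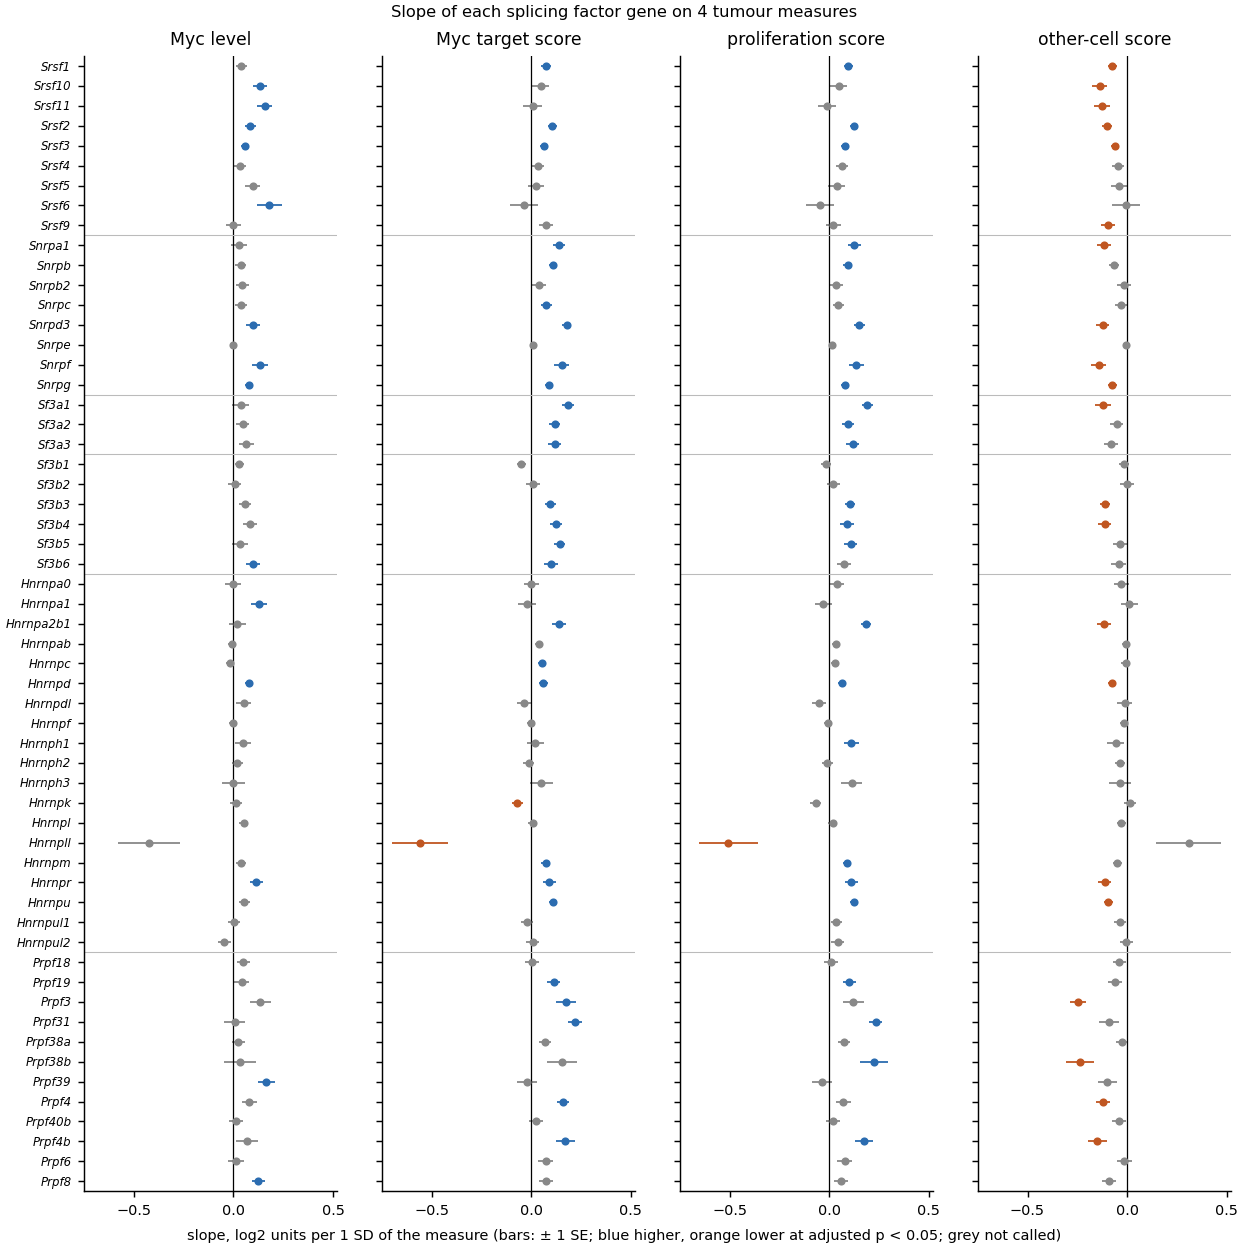
Slope of each member (rows, in the same family order as above) on the Myc level, the Myc target score, the proliferation score and the other-cell score, in log2 units per SD, with ± 1 SE. Blue points are higher and orange points lower at an adjusted p under 0.05, and grey points were not called. Higher calls on the first 3 measures number 14, 27 and 24, lower calls on the other-cell score number 21, and Hnrnpll stands to the left on the first 3.

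With the other-cell score, 0 members were higher and 21 lower (limma), against 13% of all genes in each direction. That is 36.8% of the members, and 54 of the 57 slopes were negative. The median slope was -0.051 for the members and -0.020 for all genes. Prpf3 was lowest where other cells were most, with a slope of -0.25 ± 0.039 (adjusted p = 2.49e-05), and stayed called without tumours 2, 24 and 30 (slope -0.18, adjusted p = 0.00482). Sf3b3 had a slope of -0.11 ± 0.024, Hnrnpu -0.095 ± 0.023, Srsf2 -0.10 ± 0.025 and Snrpd3 -0.12 ± 0.031, with adjusted p between 0.00115 and 0.00412. Without those 3 tumours 3 members were called (5.26%, against 2.45% of all genes lower), namely Prpf3, Srsf9 and Srsf11, and without tumour 30 alone it was 15 (26.3%, against 10.2% of all genes lower). Prpf3 and Srsf11 lie on chromosome 3 and were also called on the level of that chromosome, described below. Srsf9, on chromosome 5, was not called on its own chromosome. It was highest in tumour 7, with the highest chromosome 5 level (0.35) and rank 31 in the other-cell score. The part of the chromosomes in these 3 calls was not tested.

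No member followed the precursor B cell score, built on genes of early B cells such as Rag1 and Vpreb1. The count was 0 by limma, with 7 members at an unadjusted p under 0.05, against 1.68% of all genes higher and 1.15% lower (2.83% in either direction). Without tumours 2, 24 and 30 it was 4, namely Hnrnpul1, Prpf4, Sf3a1 and Snrpg, against 7.49% of all genes higher and 8.63% lower. As a measure of RNA integrity, the 3' probe sets of the Gapdh and Actb controls were set against their 5' ones. On this 3' minus 5' difference 1 member was lower, Prpf18 (slope -0.11 ± 0.028, adjusted p = 0.0485), against 0.321% of all genes higher and 0.837% lower (1.16% in either direction). That call was lost in 22 of the 32 fits that left out a tumour, and without tumours 2, 24 and 30 together Prpf18 and Prpf8 were lower (3.51%, against 2.9% of all genes).

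Other genes of the pathway were taken from lists. Of 15 tested genes of snRNP assembly, 10 were higher with the Myc level and 0 lower (median slope 0.15, against 0.014 for all genes). They included Coil, the scaffold of the Cajal body (slope 0.15 ± 0.026, adjusted p = 0.000163), Ddx20, a helicase of the SMN complex (0.25 ± 0.043, adjusted p = 0.000254), and Prmt5, which methylates Sm proteins (0.18 ± 0.033, adjusted p = 0.000369). Tgs1, which methylates the cap of snRNAs, had 0.13 ± 0.027 (adjusted p = 0.00167). On the Myc target score 11 of these 15 were higher, led by Gemin8 (0.29 ± 0.031, adjusted p = 4.64e-08) and Gemin5 (0.26 ± 0.029, adjusted p = 6.56e-08), both of the SMN complex. Of 51 other spliceosome genes 13 were higher on the Myc level and 25 on the Myc target score, with 0 lower. Among 34 splicing regulators it was 5 and 10, with Mbnl2, known for promoting differentiated splice forms, lower on the score (-0.22 ± 0.049, adjusted p = 0.000895). Of the 8 kinases of SR proteins 0 were called on the Myc level by limma. Their median slope on the Myc target score was -0.030, against 0.020 for all genes, with Srpk1 called higher (0.23 ± 0.049, adjusted p = 0.000534). With the other-cell score 9 of the 15 assembly genes were lower. Of all genes, 10.4% were higher and 9.67% lower on the Myc level, and 21% higher and 13.4% lower on the Myc target score. On the other-cell score 13% of all genes were lower. Without tumours 2, 24 and 30 the assembly genes gave 7 higher on the Myc level and 6 on the Myc target score, and 1 lower on the other-cell score. The other spliceosome genes then gave 6 higher on the Myc level and 14 on the Myc target score, and the regulators 1 and 2, with 3 regulators and the kinase gene Clk1 lower on the score. Of all genes, 4.56% were then higher on the Myc level, and 12% higher and 6.3% lower on the Myc target score. On the other-cell score 2.45% were lower. The 2 of 34 regulators higher on the Myc target score were a smaller share than that of all genes.

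Members moved together more than genes at large, but loosely. The median r over the 1596 pairs of members was 0.17, against 0.0055 over all pairs of genes tested. It was 0.36 among the 28 snRNP pairs, all of them positive, and 0.55 among the 3 SF3A pairs. The SR pairs gave 0.24, the PRPF pairs 0.16, the SF3B pairs 0.11 and the hnRNP pairs 0.10. The highest r was that of Hnrnpa2b1 with Sf3a1 (0.86), both lowest in tumour 30, and the next that of Prpf38a with Sf3a3 (0.85), both highest in tumour 21. Hnrnpll had the lowest median r with the other members of the 57 (-0.26) and reached -0.64 with Srsf3. These r values are over the same 32 arrays and are given as a description.

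Of 14 pairs of genes tied by known biology, 10 could be run, with 32 tumours in each except the last, and r is given with a two-sided permutation p adjusted over the 10. Prpf8 rose with Snrnp200, the helicase that Prpf8 controls in the U5 snRNP (r = 0.85, p = 1e-05, the smallest the permutations can give, adjusted p = 0.0001, rho = 0.74). The relation was as close without the 2 tumours farthest out (r = 0.81) and without tumours 2, 24 and 30 (r = 0.86). Hnrnpll rose with Sdc1, a plasma cell marker (r = 0.61, p = 0.00071, adjusted p = 0.00355, rho = 0.56 with p = 0.00097). Sdc1 ran from 5.17 to 10.67, and tumour 29 was highest in both genes. Without tumour 29 alone r was 0.39 and the call was lost. Without the 2 tumours farthest out in Sdc1, 29 and 12, r was 0.52.

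Hnrnpa1, a splicing repressor with a described link to Myc, rose with Myc (r = 0.52, permutation p = 0.00271, adjusted p = 0.00903). Its rho was 0.34 (p = 0.0597), r without tumours 2 and 7 was 0.35, and without tumour 2 alone 0.30, where the call was lost. Srsf1, a proto-oncogenic SR protein, gave r = 0.27 with Myc (permutation p = 0.129, adjusted p = 0.215), Sf3b1 0.24 (p = 0.194, adjusted p = 0.243) and Hnrnpa2b1 0.089 (p = 0.60, adjusted p = 0.60). With the mean of all its probe sets Srsf1 passed (r = 0.48, adjusted p = 0.0113). Srsf2 with its kinase gene Clk1 gave r = 0.30 (permutation p = 0.0983, adjusted p = 0.209), and Sf3b1 with Sf3b3 gave 0.12 (p = 0.510, adjusted p = 0.566). Hnrnpa1 with Hnrnpa2b1 gave -0.29 (permutation p = 0.105, adjusted p = 0.209), but 0.53 with the mean of probe sets. Hnrnpl fell into separate clusters, with 3 tumours (2, 5 and 24) between 11.41 and 11.42 and 29 at or above 11.54. Within the 29, Hnrnpl with Hnrnpll gave r = -0.26 (permutation p = 0.182, adjusted p = 0.243).

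**Figure D3:**
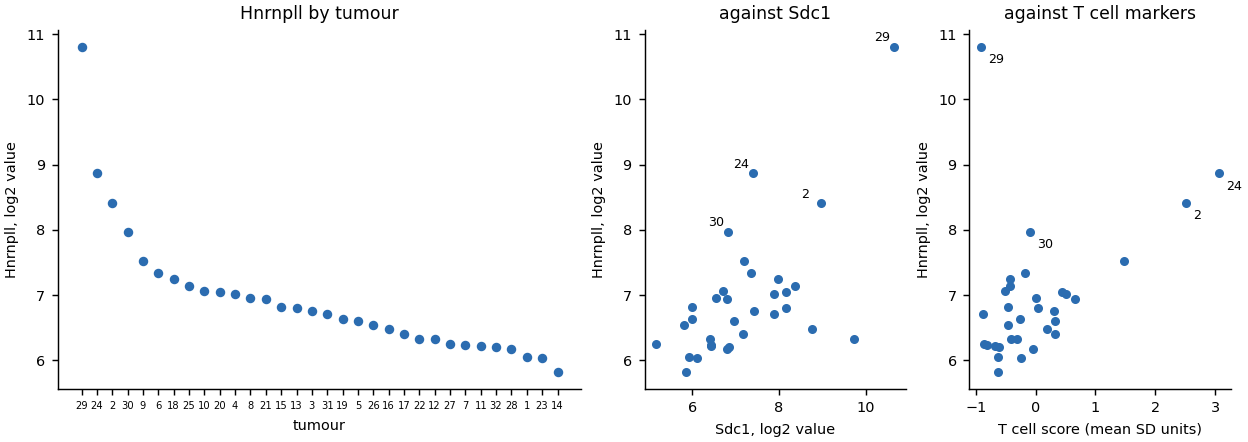
Left, the log2 level of Hnrnpll in each tumour, from highest to lowest, where tumour 29 stands apart at 10.81. Middle and right, the same level against Sdc1 and against the T cell score, with tumours 29, 24, 2 and 30 labelled.

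The 4 tumours highest in Hnrnpll did not all share these measures. Tumour 29 had the highest Sdc1 (10.67) and the lowest T cell score (-0.91). Other genes of plasma cells, looked at after these values were seen, were split there. Prdm1 (8.83 against a median of 5.07) and Irf4 (11.25 against 9.55), both transcription factors, were highest in tumour 29. Jchain, which joins secreted antibodies, was lowest there, at 3.31 against a median of 7.12. Tumours 24 and 2 led the series in the T cell score, with Sdc1 at 7.40 and 8.98. They were also next highest in Prdm1, at 8.55 and 8.30, and high in Jchain (11.16 and 12.93). Xbp1 was 11.41 and 12.26 there and 11.07 in tumour 29, against a median of 10.65. Irf4 was 9.53 and 9.23 in tumours 24 and 2. Tumour 30 had neither a high T cell score (-0.098) nor high Sdc1 (6.83) or Prdm1 (5.12), and had the lowest Myc target score. Against the other-cell score as a whole Hnrnpll had a slope of 0.31 ± 0.16 (adjusted p = 0.163). How much of the Hnrnpll RNA of tumours 24 and 2 comes from T cells or from plasma cells was not tested.

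Many members followed the level of the chromosome they lie on. The level of a chromosome in a tumour is the median centred log2 value of its other tested genes. With it, 26 of the 57 members were higher and 0 lower (least squares with limma's squeezed variances, adjusted p under 0.05), against 26.5% of all genes higher and 2.36% lower (28.8% in either direction). That is 45.6% of the members. By family it was 5 of 6 SF3B, 2 of 3 SF3A, 7 of 12 PRPF, 5 of 8 snRNP, 3 of 9 SR and 4 of 19 hnRNP members. Without tumours 2, 24 and 30 the count was 24, with 22 shared, against 25.9% of all genes higher. Among the brighter genes that pass a filter at the 75th percentile the gap was smaller, with 31 of 55 members higher (56.4%, against 43.8% of all genes) and a median slope of 0.080 for the members and 0.089 for all genes. DNA copy number was not measured here. The level of a chromosome was not set apart from a shift shared by many chromosomes in a tumour. Chromosomes 7, 8 and 11 had levels with SDs of only 0.039, 0.048 and 0.035, and all were lowest in tumour 24. How far the calls there, Prpf31, Sf3b3, Prpf8 and Sf3a1, come from such a shift was not tested. Members named in the next 3 paragraphs beyond the 5 with the largest t were chosen after their values were seen.

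The closest was Sf3b6, which contacts the branch point, on chromosome 12. Its level was 10.96 in the lowest tumour, 11.35 in the median tumour and 11.95 in tumour 20, with a slope of 0.17 ± 0.022 log2 units per SD of the chromosome level (adjusted p = 1.27e-06). Tumours 6, 16, 20 and 32 stood apart with chromosome 12 levels from 0.22 to 0.34. Sf3b6 was highest in tumour 20 and Srsf5, an SR protein, in tumour 32, and without the 4 tumours neither was called (adjusted p = 0.115 and 0.257). Srsf11, Sf3b4, Prpf3 and Prpf38b were the 4 members on chromosome 3, and all 4 were called, Prpf38b with a call lost in 9 of the 32 fits that left out a tumour. Srsf11 had a slope of 0.20 ± 0.030 (adjusted p = 9.37e-06) and Sf3b4 0.15 ± 0.026 (adjusted p = 6.67e-05). Srsf11, Sf3b4 and Prpf3 were called in each of these fits. Tumours 7, 8, 10, 12, 15, 18, 22, 27 and 32 had chromosome 3 levels from 0.17 to 0.27, and all others lay below 0. Leaving out 1 tumour keeps the rest of that group in the fit, and a fit without the whole group was not run.

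On chromosome 19 all 3 members were lowest in tumour 14, whose chromosome 19 level of -0.56 was the lowest by far. Sf3b2, which binds near the branch point, was 10.12 there, against a median of 10.91 and 10.63 in the next lowest tumour. Prpf19, the core of the Prp19 complex, was 11.70 against a median of 12.36, and Hnrnpul2 was 9.35 against 9.95. These members lay 0.80, 0.67 and 0.60 log2 units below their medians. The slope of Sf3b2 was 0.14 ± 0.023 (adjusted p = 5.34e-05). Without tumour 14 Prpf19 was still called (adjusted p = 0.0286) and Sf3b2 and Hnrnpul2 were not (adjusted p = 0.539 and 0.169).

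Chromosome 10 carries members of 3 complexes that meet on the U2 snRNP, Snrpd3, Snrpf, Sf3a2 and Sf3b5. All 4 were highest in tumour 17 and next highest in tumour 20, the 2 tumours with the highest chromosome 10 levels (0.27 and 0.28). In tumour 17 they were 0.46, 0.64, 0.56 and 0.63 log2 units above their medians, in that order. Hnrnph3, on the same chromosome, was next to highest in tumour 17. Without tumours 17 and 20 Sf3a2, Sf3b5 and Snrpd3 were still called (adjusted p = 0.0272, 0.00371 and 0.0394) and Snrpf was not (adjusted p = 0.464). On chromosome 2, Prpf6 of the tri-snRNP and Snrpb2 of the U2 snRNP were lowest in tumour 28, 0.89 and 0.74 below their medians, whereas Snrpb on the same chromosome was 0.012 above its own. Prpf6 had a slope of 0.16 ± 0.027 (adjusted p = 2.84e-05) and was called without tumour 28 (adjusted p = 0.00105), and Snrpb2 was not (adjusted p = 0.306). Hnrnpa0 on chromosome 13 was lowest in tumour 23, at 11.10 against a median of 11.73, where that chromosome's level was -0.39. Its call was lost without that tumour (adjusted p = 0.487).

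**Figure D4:**
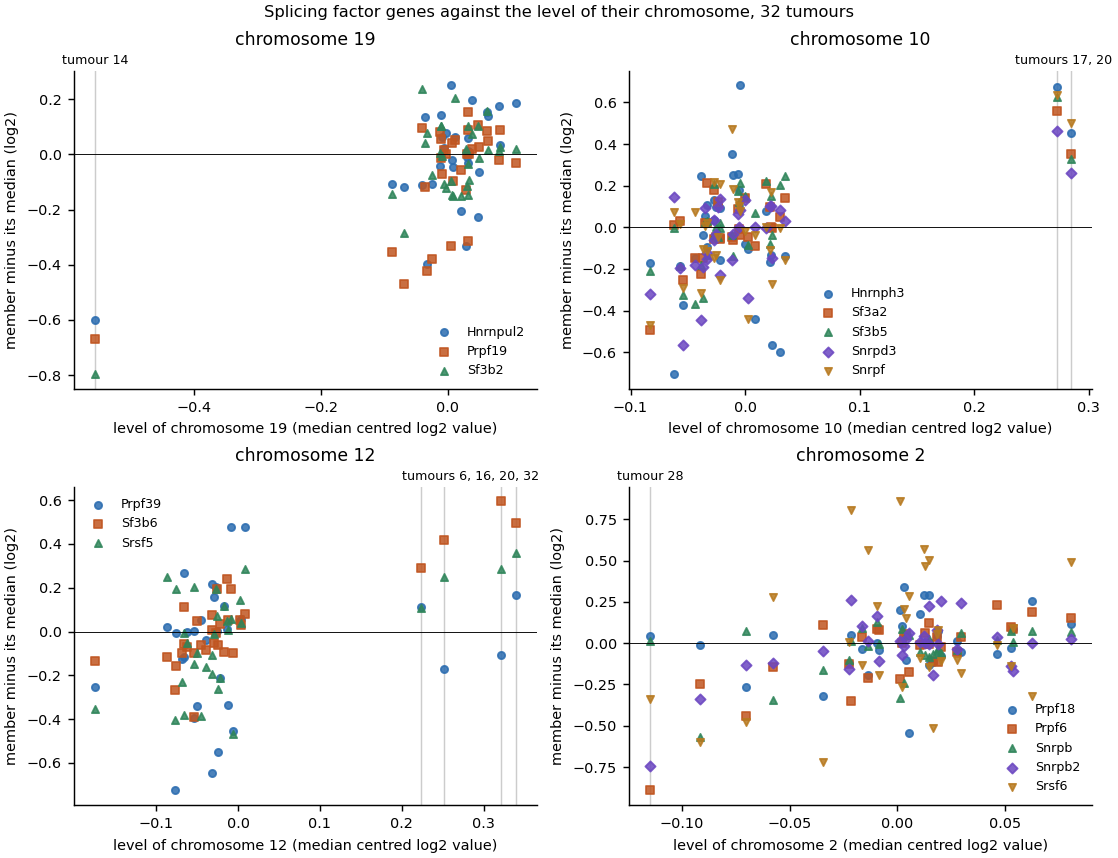
Each member of chromosomes 19, 10, 12 and 2 minus its median (vertical axis, log2) against the level of that chromosome (horizontal axis, median centred log2 value) in the 32 tumours. Grey lines mark tumours 14, 17 and 20, then 6, 16, 20 and 32, and 28. The 3 members of chromosome 19 lie 0.60 to 0.80 below their medians in tumour 14.

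Probe sets of 1 gene sometimes differed. Of the members 41 had at least 2 probe sets above the filter, and the median r of the highest with the next was 0.71, against 0.75 for all genes with 2 or more. In 21 it was over 0.7, and in 8 under 0.3, namely Hnrnpa2b1, Hnrnpf, Hnrnpk, Prpf4b, Sf3a1, Sf3b3, Snrpd3 and Srsf6. These 8 and the values of tumour 30 below were picked out after they were seen. The counts of 21 and 8 were not made over all genes, so they are not read as particular to the members. Probe sets can read different transcript forms or 3' ends, and some match related genes, and the files do not say which applies.

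Tumour 30 shows how far they parted. Of the Srsf6 probe sets 3 were highest there, the one used at 12.61 against a median of 11.75 and another at 10.84 against 9.69. The remaining one was lowest there, at 10.82 against 11.75. One Hnrnpk probe set was lowest in tumour 30 (12.05 against a median of 12.48) and another highest (8.52 against 8.14). The Prpf4b probe set used was lowest (9.30 against 10.13) and 2 others highest (6.95 against 5.74 and 10.45 against 9.76). The first of these 2 others was near the filter, with a mean of 5.787. In contrast, 4 of the 6 Srsf3 probe sets were lowest there, one of them at 6.23 against a median of 8.70.

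Slopes parted in the same way. On the proliferation score the Prpf4b probe set used had a slope of 0.17 ± 0.046 and 2 others -0.23 ± 0.048 and -0.18 ± 0.064 (adjusted p = 0.00516, 0.000762 and 0.0371, limma over 19231 probe sets). The Snrpd3 probe set used had 0.15 ± 0.027 and another -0.19 ± 0.055 (adjusted p = 0.000171 and 0.0109). That other one was also dim, with a mean of 5.86, a median of 5.77 and its highest value, 6.91, in tumour 30. Tumour 30 had the lowest proliferation score, and the slopes of these dim probe sets without it were not tested. Hnrnpf, whose probe set used had a slope of -0.0068 ± 0.019, had 2 others at 0.12 ± 0.032 and 0.12 ± 0.030 (adjusted p = 0.00678 and 0.00271). The Hnrnpa2b1 probe set used had 0.19 ± 0.026, and the others, at 0.013, -0.018 and 0.055, were not called. For Sf3a1 the probe set used had 0.19 ± 0.028 and another 0.14 ± 0.032 (adjusted p = 0.00106). The remaining Sf3a1 probe set, at -0.094 ± 0.062, was not called. Taken 1 by 1, 63 of the members' 156 probe sets were higher with the proliferation score (40.4%, against 18.4% of all probe sets) and 6 lower (3.85%, against 9.98%). Without tumours 2, 24 and 30 it was 12 higher (7.69%, against 5.05%) and 2 lower (1.28% of both). Prpf4b, Snrpd3 and Hnrnpab were the 3 genes with called probe sets in both directions, Snrpd3 only through its dim probe set. By contrast, Srsf1 had 5 of 6 and Srsf3 5 of 6 probe sets called higher, with none lower.

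**Figure D5:**
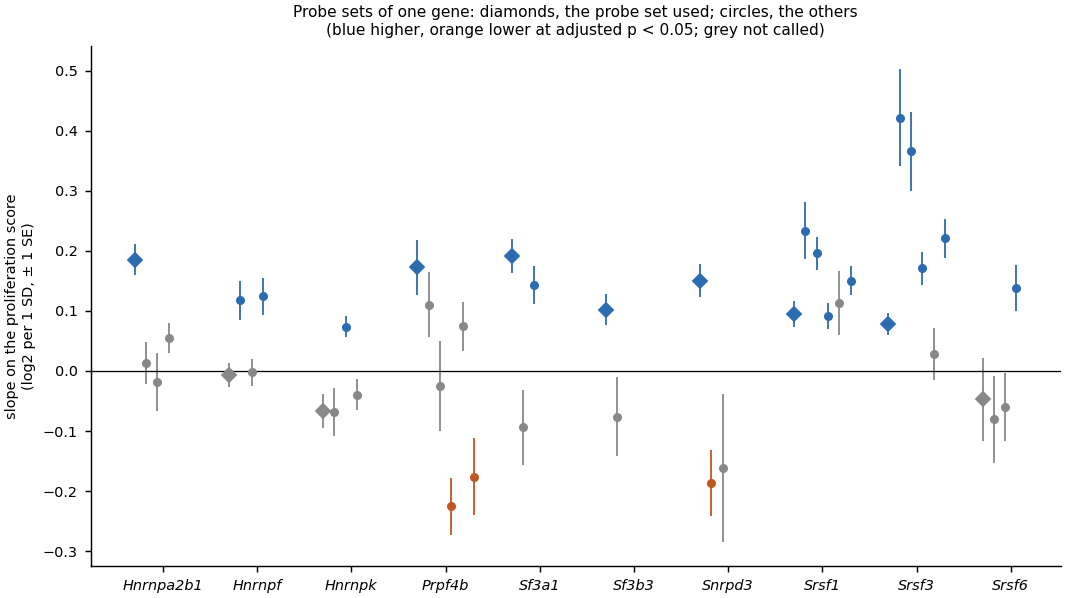
Slope on the proliferation score (log2 units per SD, ± 1 SE) of each probe set of the 8 members whose probe sets parted, with Srsf1 and Srsf3 for comparison. Diamonds are the probe sets used and circles the others, blue higher and orange lower at an adjusted p under 0.05. Prpf4b and Snrpd3 have called probe sets on both sides of 0, the lower one of Snrpd3 and 1 of those of Prpf4b being near the filter.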

How the data were processed

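Each deposited value is a log2 level of 1 probe set in 1 tumour. The submitters' processing notes name RMA and affy as the authors' tools, and their versions are not given here. RMA makes the distributions of all arrays equal, so a shift shared by most genes would not show. Of 45101 probe sets, 34958 had 1 symbol, 932 several and 9211 none. Chromosomes and promoters came from RefSeq (GRCm38.p6). Array medians lay between 5.72 and 5.80, and 0 arrays were identical.

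The filter kept probe sets with a mean of at least 5.78, the median of all. No probe set's level was set against another's. Slopes on each measure scaled to an SD of 1 were fitted with limma 3.58.1 in R 4.3.3 (lmFit, eBayes), with Benjamini-Hochberg adjustment over all genes tested and a threshold of 0.05, leaving out a score's own genes. A score is the mean standardised value of its tested genes. Pairs were tested with 100000 permutations. A gap of 25% of the range with 3 tumours on each side counted as separate clusters. Steps were tested on simulated data. Python 3.11.15, numpy 2.4.6, pandas 2.3.3, scipy 1.17.1 and matplotlib 3.10.9 were used.

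Members and lists were chosen with earlier results of these data known. Named were the 8 members with the largest and the 4 with the smallest SD, up to 5 called members per direction and measure with the largest moderated t, up to 4 called genes per direction of a list, the genes of the pairs, and the Sm, SF3A and SF3B members, with exceptions stated. Members named for a count of 5 or fewer or for 1 tumour were chosen after their values were seen. Alternatives were a gene's averaged probe sets, dropping the filter or raising it to the 75th percentile, quantile normalization again, ranks of the measure, covariates, and tumours left out. The sources used here name no batch.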

Additional observations from a re-analysis of the deposited data

How the results depend on the processing

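Counts of called members moved by over 1.5 times, or from or to 0, as follows, and the cause was not tested. Shares over all genes that were not given above follow each count. On the Myc level it was 5 with ranks of the measure, 2 with the other-cell score as a covariate and 1 without tumours 2, 24 and 30, against 14. By ranks that was 8.77% of the members higher, against 5.26% of all genes. On the Myc target score it was 16 with the other-cell score and 3 with the proliferation score as a covariate and 9 without the 3 tumours, against 29. On the proliferation score it was 15 with ranks, 11 with the other-cell score as a covariate and 3 without the 3 tumours, against 25. By ranks 24.6% of the members were higher and 1.75% lower, against 13.5% and 7.28% of all genes. On the precursor B cell score it was 2 with the other-cell score, 1 with the 3' minus 5' difference as a covariate and 4 without the 3 tumours, against 0. With these covariates 3.51% and 1.75% of the members were higher, against 1.88% and 1.75% of all genes. Without the 3 tumours 1.75% of the members were higher and 5.26% lower, against 7.49% and 8.63% of all genes. On the other-cell score it was 9 with the filter at the 75th percentile, which tests fewer genes, and 3 without the 3 tumours, against 21. With that filter 16.4% of the members were lower, against 5.33% of all genes. On the 3' minus 5' difference it was 0 with the mean of probe sets, quantile normalization again, ranks, the salivary score or the other-cell score as a covariate, and 2 without the 3 tumours, against 1. In the settings with 0 members, from 0.0178% to 0.677% of all genes were lower and from 0.00891% to 0.499% higher.

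Leaving out each tumour in turn gave 5 to 20 calls on the Myc level, 21 to 30 on the Myc target score, 16 to 27 on the proliferation score, 0 to 1 on the precursor B cell score, 15 to 23 on the other-cell score, 0 to 2 on the 3' minus 5' difference and 19 to 29 on the chromosome level. Calls over all genes moved too. On the Myc level 5.45% of all genes were higher without tumour 2, which gave the 5, and 13.8% without tumour 30, which gave the 20. Without tumour 24 the 19 on the chromosome level were 33.3% of the members, against 23.8% of all genes higher. The median SD lay between 0.187 and 0.206 and the median pairwise r between 0.107 and 0.177. For pairs, r lay between 0.127 and 0.502 for Srsf1 with Myc, 0.298 and 0.567 for Hnrnpa1 with Myc, -0.0530 and 0.317 for Hnrnpa2b1 with Myc, 0.0319 and 0.338 for Sf3b1 with Myc, and -0.529 and -0.0122 for Hnrnpa1 with Hnrnpa2b1. It lay between 0.157 and 0.420 for Srsf2 with Clk1, 0.826 and 0.881 for Prpf8 with Snrnp200, 0.393 and 0.707 for Hnrnpll with Sdc1, -0.00361 and 0.304 for Sf3b1 with Sf3b3, and -0.336 and -0.00869 for Hnrnpl with Hnrnpll.

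With the mean of probe sets, Srsf1 with Myc (r = 0.481) and Sf3b1 with Sf3b3 (0.551) passed and Hnrnpa1 with Hnrnpa2b1 turned to 0.528. Without the 3 tumours Hnrnpa1 with Myc was 0.167, no longer called, and Sf3b1 with Myc turned to -0.0539. With the other-cell score as a covariate Hnrnpa2b1 with Myc turned to -0.220. On the chromosome level, Hnrnph3 without tumours 17 and 20 turned to -0.0157 and Hnrnpk without tumour 23 to -0.0230. On the Myc target score, where neither was called, Sf3b2 turned to -0.00588 with quantile normalization again, -0.00822 with ranks, -0.0145 with the proliferation score as a covariate and -0.0251 without the 3 tumours, and Snrpe to -0.00246, -0.00723 and -0.0122 under the last 3 of these. Of the other values of single named members, 303 kept direction and side, 68 lost the call and 4 gained it, 3 of them Sf3b1 on the Myc target score and 1 Snrpb on the level of chromosome 2 without tumour 28 (0.0789). No paired analysis was possible because the labels give 1 group. The number of arrays limits the precision.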

Other observations

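Sf3a3, an SF3A subunit, and Prpf38a, a tri-snRNP associated protein, lie apart on chromosome 4 and were both highest in tumour 21, at 10.98 against a median of 10.24 and at 9.93 against a median of 9.25. The 99 tested genes between them in the order of RefSeq genes had a median of 0.62 log2 units above their own medians in tumour 21, and 93 of them (93.9%) were above. In the other 31 tumours the same median lay between -0.17 and 0.077. Tested genes before the segment (277) and after it (306) had medians of 0.0030 and 0.0041 in tumour 21. The other members on chromosome 4 stayed near their medians there, with Srsf10 0.016 and Srsf4 0.00049 above, and Hnrnpr 0.087 and Prpf4 0.22 below. This segment was picked out after the values of the pair had been seen. Neither Sf3a3 nor Prpf38a was called on the level of the whole chromosome.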
